A study of Homo sapiens with 60 samples.

Results

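The genes encoded by mitochondrial DNA were examined in HepG2, a human hepatocellular carcinoma cell line, after 24 h with herbal water extracts. They were taken as every gene whose symbol starts with MT-. This gave 37 of the 60675 genes in the table, made up of 13 mRNAs, 2 rRNAs and 22 tRNAs. The 13 mRNAs and the 2 rRNAs passed the filter on low counts, and none of the 22 tRNAs did. Messenger RNA libraries were sequenced from 60 samples, all of HepG2, and no genotype differed between them. The vehicle group (3 libraries) received 0.1% DMSO. Citri Unshius Pericarpium (mandarin peel), Cimicifugae Rhizoma (Cimicifuga rhizome), Bupleuri Radix (Bupleurum root), Aconiti Lateralis Radix Preparata (processed aconite root), Yijung-tang and Banhasasim-tang (multi-herb decoctions) were each given at 20, 100 and 500 µg/mL, with 3 libraries a dose. Bojungikgi-tang, another multi-herb decoction, had 1 library at each dose, so its values carry no replicate check. Below, each extract is called by the first word of its name. Whether the replicates of a group were cultured apart was not stated in the labels. The p-values therefore rest on differences among libraries that may be technical in origin.

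The human mitochondrial genome is a small circle whose 2 strands, called heavy and light, are each copied by the mitochondrial RNA polymerase POLRMT into a long RNA that spans many genes. tRNAs lie between most of the genes, and cutting at their ends frees the mRNAs and rRNAs, which are then trimmed, modified and given short poly(A) tails. The mRNAs encode core subunits of respiratory complexes I, III, IV and V, and the rRNAs form the core of the mitochondrial ribosome, whose proteins are all made from nuclear genes. In the GENCODE 29 annotation of GRCh38, MT-RNR1 (the small-subunit rRNA, ENSG00000211459) was at chrM:648-1601 and MT-RNR2 (the large-subunit rRNA, ENSG00000210082) at chrM:1671-3229. Then came MT-ND1 (3307-4262) and MT-ND2 (4470-5511) of complex I, MT-CO1 (5904-7445) and MT-CO2 (7586-8269) of complex IV, and MT-ATP8 (8366-8572) and MT-ATP6 (8527-9207) of complex V. MT-CO3 (9207-9990) of complex IV was followed by MT-ND3 (10059-10404), MT-ND4L (10470-10766), MT-ND4 (10760-12137) and MT-ND5 (12337-14148) of complex I. MT-CYB (14747-15887) of complex III was the last. All of these were on the plus strand of the reference, where heavy-strand transcripts are annotated. MT-ND6 (14149-14673), a subunit of complex I, was the only mRNA gene on the minus strand, along with 8 tRNAs.

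The borders at which the measured values change are shown here in GENCODE's transcript sequences, 5′ to 3′. The 3′ ends of both rRNAs and of MT-ND4 and MT-ND5 are given as the last 24 bases, in lower case with bases of the stop codon in capitals.
MT-RNR1, chrM:1578-1601: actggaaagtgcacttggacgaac
MT-RNR2, chrM:3206-3229: cacacccacccaagaacagggttt
MT-ND4, chrM:12114-12137: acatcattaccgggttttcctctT
MT-ND5, chrM:14125-14148: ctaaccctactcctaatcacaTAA
MT-ND4 ends with 1 base of its stop codon, and 6 of the 13 mRNA genes end with such an incomplete codon, which poly(A) addition completes. MT-ND5 carries a whole one, as do 7 of the 13. The tRNA after the rRNAs and the 3 tRNAs between MT-ND4 and MT-ND5 are shown because the largest steps in the data lie on either side of them.
MT-TL1, chrM:3230-3304: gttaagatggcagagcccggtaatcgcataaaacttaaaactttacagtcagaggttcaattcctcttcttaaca
MT-TH, chrM:12138-12206: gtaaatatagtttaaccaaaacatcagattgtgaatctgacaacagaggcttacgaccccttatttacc
MT-TS2, chrM:12207-12265: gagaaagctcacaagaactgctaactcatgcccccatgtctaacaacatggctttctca
MT-TL2, chrM:12266-12336: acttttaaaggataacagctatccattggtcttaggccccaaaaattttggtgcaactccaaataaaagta
The sequence shared by MT-ATP8 and MT-ATP6 is shown because reads from it can be given to either gene.
MT-ATP8 and MT-ATP6, chrM:8527-8572: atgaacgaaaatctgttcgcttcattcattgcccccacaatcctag
This overlap is 46 bases long, MT-ND4L and MT-ND4 share 7 bases, and MT-ATP6 and MT-CO3 share 1 base.

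Libraries held between 17598646 and 30451640 counts. The hepatocyte markers were all detected, with ALB at 6590.0 to 10279 CPM (reads of a gene scaled to library size), APOB at 13486 to 23443 and AFP at 3059 to 4088. Of the 10 markers of blood, endothelial and stromal cells, KDR was at 0 in every library and DCN, LUM and COL1A2 did not exceed 0.05 CPM. The highest were CD68 (31.2 to 71.1 CPM) and HBB (0 to 43.0 CPM). Below, a gene rose or fell where edgeR's quasi-likelihood test over all 16093 genes tested gave a Benjamini-Hochberg adjusted p under 0.05, and differences are log2 fold changes with their standard errors (SE).

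The question answered by comparing doses within an extract is how its RNAs change with concentration. Both mitochondrial rRNAs rose steeply with the dose of Aconiti. MT-RNR1 stood at 7200.3, 6917 and 6730 CPM in the 3 libraries at 20 µg/mL, at 26370.5, 28293 and 28042 CPM at 100 µg/mL, and at 47571, 48089 and 47079 CPM at 500 µg/mL. The vehicle libraries held 4332, 4264 and 4028 CPM. The 4 groups did not overlap, and the libraries at 500 µg/mL differed among themselves by little (47580 ± 506 CPM, SD, n = 3). From 20 to 500 µg/mL MT-RNR1 rose by 2.77 ± 0.0629 on the log2 scale, which is 6.82-fold (edgeR adjusted p = 1.09e-35). MT-RNR2 stood at 25672, 24588 and 24379 CPM at 20 µg/mL, at 60684, 66672 and 62652 CPM at 100 µg/mL and at 95180.2, 89335 and 91627 CPM at 500 µg/mL, against 20563, 17740 and 19480 CPM in vehicle. These groups did not overlap either. The rise from 20 to 500 µg/mL was 1.88 ± 0.0664, or 3.68-fold (edgeR adjusted p = 4.05e-28). Of the 16093 genes, MT-RNR1 was the 25th and MT-RNR2 the 82nd by fold change. Outside the 6 Aconiti libraries at 100 and 500 µg/mL, no library exceeded 12772 CPM of MT-RNR1 or 33627 CPM of MT-RNR2. In bulk samples, a change in the number of cells of a kind and a change in RNA per cell cannot be told apart.

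**Figure D1:**
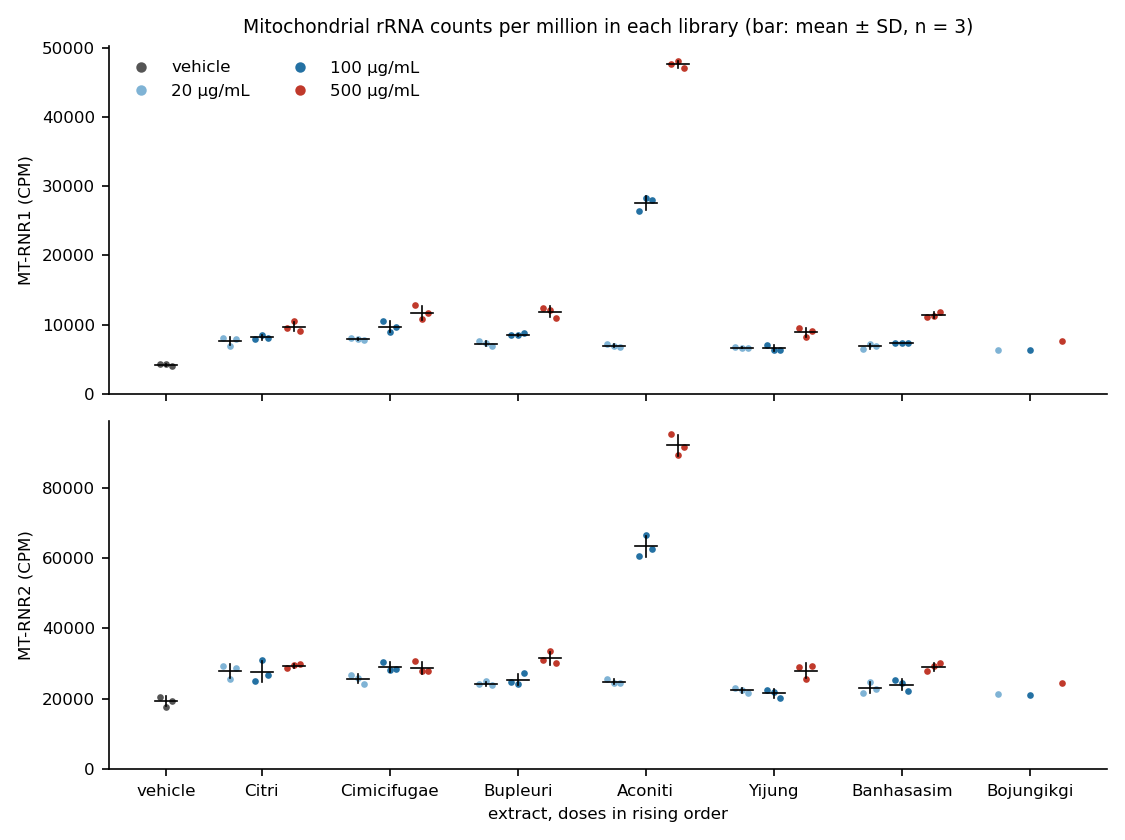
CPM (y axis, linear) of MT-RNR1 (upper panel) and MT-RNR2 (lower panel) in each of the 60 libraries, by extract and dose (x axis). Points are libraries, black bars are the mean ± SD of 3 libraries, and Bojungikgi has 1 library a dose. The 3 Aconiti libraries at 500 µg/mL lie at 47079 CPM or more for MT-RNR1, where no library outside Aconiti at 100 and 500 µg/mL exceeds 12772.

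The smaller subunit's rRNA also rose from 20 to 500 µg/mL in the other 5 extracts tested. The rise in MT-RNR1 was 0.73 ± 0.0593 in Banhasasim, 0.71 ± 0.0592 in Bupleuri, 0.57 ± 0.0591 in Cimicifugae, 0.42 ± 0.0590 in Yijung and 0.35 ± 0.0590 in Citri, and in none of them did the dose groups overlap. Citri had the highest edgeR adjusted p of these (0.000141). In Banhasasim the 3 libraries at 500 µg/mL held 11031, 11166 and 11854 CPM of MT-RNR1, against 6433, 7231 and 6870.0 CPM at 20 µg/mL. In Citri they held 9528, 10476 and 9127 CPM against 7996, 6957 and 7969 CPM. Neither pair of groups overlapped, although Citri's were the closer. The large-subunit rRNA changed less. MT-RNR2 rose in Bupleuri (0.38 ± 0.0643), Banhasasim (0.33 ± 0.0643), Yijung (0.32 ± 0.0643) and Cimicifugae (0.16 ± 0.0643, edgeR adjusted p = 0.0380), and in Citri it stood at 0.08 ± 0.0642 (edgeR adjusted p = 0.729). The Cimicifugae call was lost without replicate 1 at 500 µg/mL (0.12, edgeR adjusted p = 0.217) and without replicate 2 or replicate 3 at 20 µg/mL (adjusted p = 0.0622 and 0.183). In Yijung, a fit on only the compared groups gave MT-RNR2 an adjusted p of 0.0519.

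The mRNAs did not follow the rRNAs. In Aconiti at 500 against 20 µg/mL, 3 of the 15 mitochondrial genes tested rose (both rRNAs and MT-ND5) and 6 fell, where 37.2% of all genes tested were called (19.2% higher and 18.1% lower). In map order, MT-ND1 and MT-ND2 stood slightly above 0, the genes from MT-CO1 to MT-ND4 stood below it, and MT-ND5, MT-ND6 and MT-CYB stood above it. MT-ND4, a membrane subunit of complex I, had the lowest value. It stood at 11835, 10756 and 9999 CPM at 20 µg/mL, at 5869, 6399 and 5453 CPM at 100 µg/mL and at 5770.3, 5919 and 5906 CPM at 500 µg/mL. The libraries at 20 µg/mL all lay above those at the higher doses, which overlapped each other, and vehicle (9587, 7167 and 10822 CPM) overlapped the lowest dose. From 20 to 500 µg/mL MT-ND4 fell by 0.90 ± 0.137 on the log2 scale (edgeR adjusted p = 4.77e-07). MT-ND4L, which shares its transcript with MT-ND4, stood at 1338, 1507 and 1479 CPM at 20 µg/mL and at 825, 921 and 865 CPM at 500 µg/mL. These groups did not overlap, and MT-ND4L fell by 0.73 ± 0.0945 on the log2 scale (edgeR adjusted p = 8.72e-09).

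**Figure D2:**
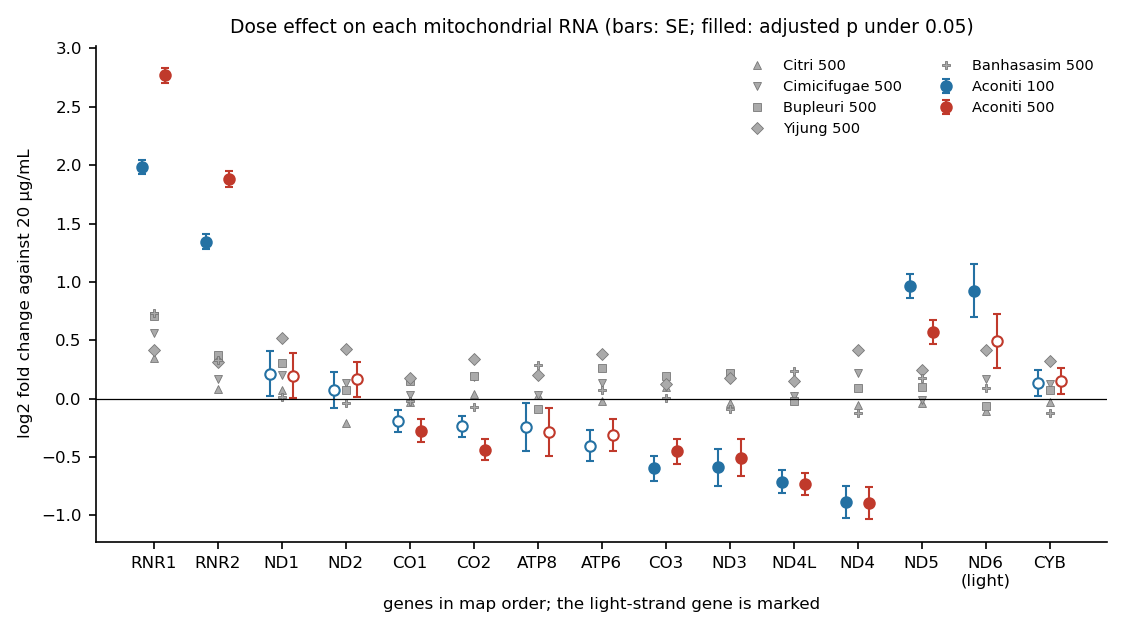
Log2 fold change from 20 to 500 µg/mL (y axis) of each mitochondrial rRNA and mRNA in map order (x axis). The 6 extracts with 3 libraries a dose are shown, and Aconiti also from 20 µg/mL to the middle dose. Bars are the SE and are drawn for Aconiti only. For Aconiti from 20 to 500 µg/mL, filled points have an adjusted p under 0.05. The other extracts are grey points without bars, whose fill does not mark a call. In Aconiti from 20 to 500 µg/mL the values run from 2.77 at MT-RNR1 down to -0.90 at MT-ND4. They stand at 0.57 at MT-ND5.

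The other called falls in Aconiti were in complex IV and in MT-ND3, another membrane subunit of complex I. MT-CO3, a core subunit of cytochrome c oxidase, stood at 7710.4, 7940.4 and 7893 CPM at 20 µg/mL and at 5518, 5461 and 6325 CPM at 500 µg/mL, without overlap. It fell by 0.45 ± 0.106 (edgeR adjusted p = 0.000503). MT-CO2, which carries the copper center that takes electrons from cytochrome c, went from 6304, 6312 and 6180 CPM (rounded from 6179.9) to 4605, 4361 and 4984 CPM, and fell by 0.44 ± 0.0928 (edgeR adjusted p = 0.000137). The groups of MT-CO2 did not overlap. MT-ND3 went from 2141, 2408 and 1903 CPM to 1465, 1596 and 1504 CPM, again without overlap, and fell by 0.51 ± 0.158 (edgeR adjusted p = 0.00875). MT-CO1, the catalytic subunit of complex IV, went from 17676, 17211 and 16073 CPM to 13520.1, 14100 (rounded from 14099.7) and 14725 CPM and fell by 0.27 ± 0.0945 (edgeR adjusted p = 0.0187). Its groups did not overlap. The MT-CO1 call was lost without replicate 1 at 500 µg/mL, replicate 1 at 20 µg/mL or replicate 2 at 20 µg/mL (adjusted p = 0.0858, 0.0694 and 0.0536), and the MT-ND3 call without replicate 2 at 20 µg/mL (-0.41, adjusted p = 0.0632).

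MT-ND5, another membrane subunit of complex I, rose across the border that MT-ND4 forms with it. It stood at 3913, 3361 and 3078 CPM at 20 µg/mL, at 6709, 6779 and 6795 CPM at 100 µg/mL and at 5171, 4766 and 5507 CPM at 500 µg/mL, against 3280.0, 2844 and 3147 CPM in vehicle. The middle dose was the highest, and the 3 doses did not overlap. The rise from 20 to 100 µg/mL was 0.97 ± 0.105 (edgeR adjusted p = 2.85e-09), that from 20 to 500 µg/mL 0.57 ± 0.104 (1.23e-05), and from 100 to 500 µg/mL MT-ND5 fell by 0.40 ± 0.104 (0.00228). MT-ND6, the light-strand mRNA, stood at 327, 168 and 227 CPM at 20 µg/mL, at 549, 393 and 430.4 CPM at 100 µg/mL and at 308, 305 and 407 CPM at 500 µg/mL. The highest library at 20 µg/mL lay above the 2 lowest at 500 µg/mL. MT-ND6 rose from 20 to 100 µg/mL (0.93 ± 0.229, edgeR adjusted p = 0.00750), a call lost without replicate 1 at 100 µg/mL (0.77, adjusted p = 0.0677) or replicate 2 at 20 µg/mL (0.72, adjusted p = 0.108). From 20 to 500 µg/mL it stood at 0.49 ± 0.229 (edgeR adjusted p = 0.0868), and with the replicate number as a block at 0.52 (adjusted p = 0.0484), which passes the threshold. It also passed without replicate 1 at 20 µg/mL (0.78, adjusted p = 0.0132) and with only the compared groups in the fit (adjusted p = 0.0271).

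The remaining 5 mRNAs were not called in Aconiti at 500 against 20 µg/mL. MT-ND1 and MT-ND2, the complex I genes that follow the rRNAs, stood at 0.20 ± 0.193 (edgeR adjusted p = 0.467) and 0.16 ± 0.151 (0.430), and MT-CYB, the only mitochondrially encoded subunit of complex III, at 0.15 ± 0.112 (0.316). The complex V genes MT-ATP6 and MT-ATP8 stood at -0.31 ± 0.135 (0.0648) and -0.29 ± 0.207 (0.295). MT-ATP6 passed the threshold without replicate 3 at 20 µg/mL (-0.42, adjusted p = 0.0225). With only the compared groups in the edgeR fit, MT-ATP6 (adjusted p = 0.00647), MT-ATP8 (0.00123) and MT-CYB (0.0294) passed. All 5 passed without a filter on low counts. MT-ATP8 stood at 189 to 207 CPM at 20 µg/mL and at 143 to 174 CPM at 500 µg/mL, without overlap.

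Most of this pattern was already present at 100 µg/mL of Aconiti. From 20 to 100 µg/mL, 4 of the 15 genes rose and 4 fell, where 5.68% of all genes tested were called (3.11% higher and 2.57% lower). MT-RNR1 rose by 1.98 ± 0.0611 (3.96-fold) and MT-RNR2 by 1.34 ± 0.0654 (2.54-fold). MT-ND4 fell by 0.88 ± 0.137, MT-ND4L by 0.71 ± 0.0944, MT-CO3 by 0.60 ± 0.106 and MT-ND3 by 0.59 ± 0.158. The MT-ND3 call was lost without replicate 2 at 100 µg/mL, replicate 3 at 100 µg/mL or replicate 2 at 20 µg/mL (edgeR adjusted p = 0.0509, 0.0923 and 0.108). From 100 to 500 µg/mL, 30.7% of all genes tested were called (15.7% higher and 15% lower), and among the mitochondrial genes both rRNAs rose (MT-RNR1 by 0.79 ± 0.0593, MT-RNR2 by 0.54 ± 0.0644) and MT-ND5 fell. MT-ND4 and MT-ND4L stood at -0.01 ± 0.136 and -0.02 ± 0.0942 in that step.

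Ratios within a library do not depend on the scaling between libraries. The rRNAs had 0.386 ± 0.0335 (SD, n = 3) times the counts of the mRNAs in vehicle and 0.449 ± 0.0182, 1.43 ± 0.0565 and 2.28 ± 0.157 times those counts at 20, 100 and 500 µg/mL of Aconiti. No library outside Aconiti at 100 and 500 µg/mL exceeded 0.705. The ratio of MT-RNR1 to MT-RNR2 was 0.219 ± 0.0184 in vehicle and 0.279 ± 0.00284, 0.435 ± 0.0116 and 0.517 ± 0.0195 over the Aconiti doses, with 0.418 as the highest value elsewhere. MT-ND5 had 0.343 ± 0.0530 times the counts of MT-ND4 in vehicle, 0.317 ± 0.0120 at 20 µg/mL of Aconiti, 1.15 ± 0.0935 at 100 µg/mL and 0.878 ± 0.0656 at 500 µg/mL. The 6 Aconiti libraries at the higher doses thus lay above all others, whose highest value was 0.456. MT-CO3 had 0.349 ± 0.0178 and 0.408 ± 0.0211 times the counts of MT-CO1 at 100 and 500 µg/mL of Aconiti, below the lowest value elsewhere (0.436). MT-ND6 amounted to 0.339 ± 0.102%, 0.729 ± 0.146% and 0.554 ± 0.0612% of the heavy-strand mRNA counts over the Aconiti doses, and other libraries reached 0.596%.

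**Figure D3:**
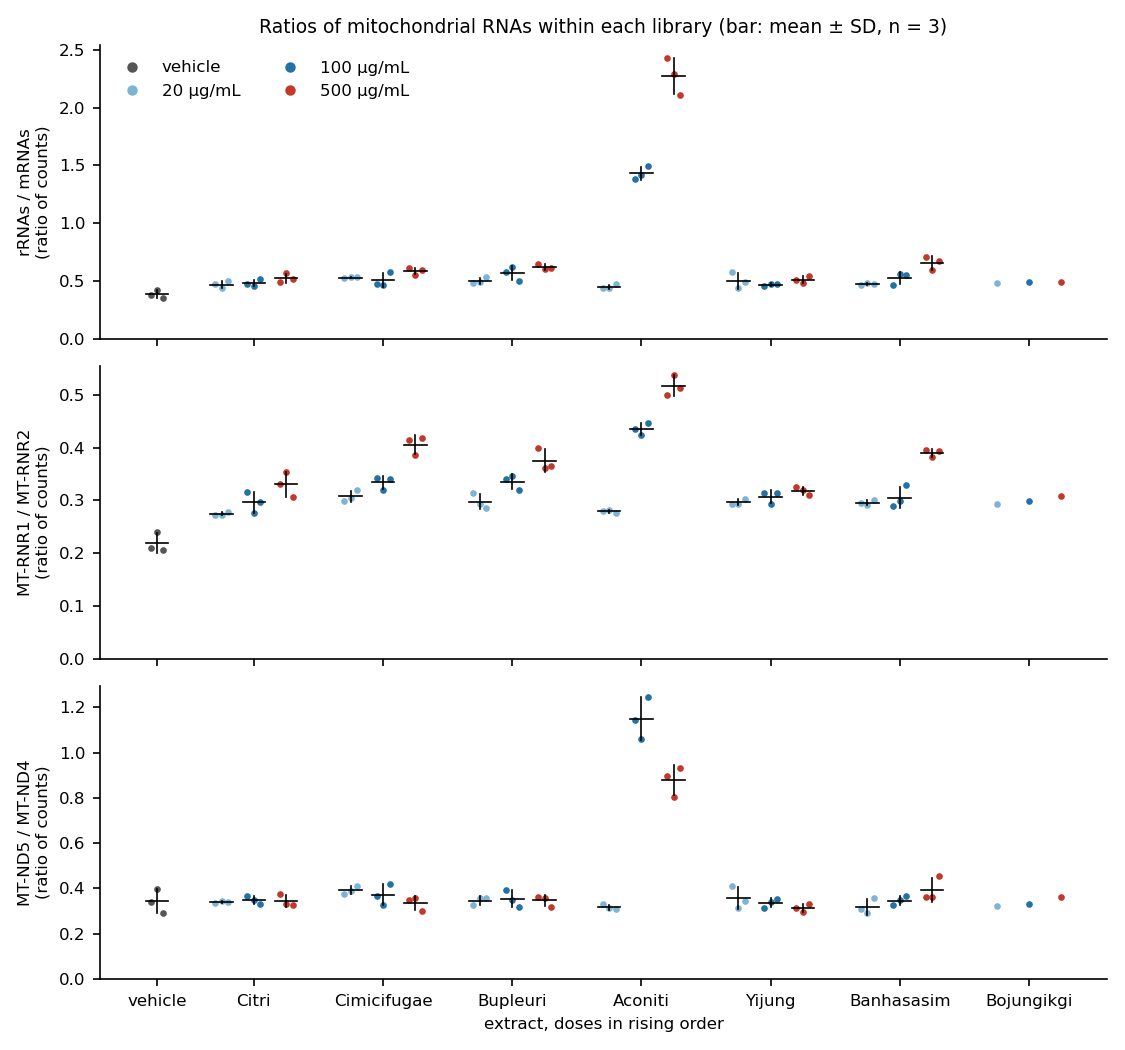
Ratio of counts (y axes, linear, without unit) of the rRNAs to the mRNAs (top), of MT-RNR1 to MT-RNR2 (middle) and of MT-ND5 to MT-ND4 (bottom) in each library, by extract and dose (x axis). Points are libraries and black bars the mean ± SD of 3. The Aconiti libraries at 100 and 500 µg/mL lie above every other library in all 3 panels, at 2.28 ± 0.157 in the top panel at 500 µg/mL.

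The 15 genes made up 7.71% to 12.6% of the counts of a library outside Aconiti at 100 and 500 µg/mL. In Aconiti their share was 10.3 ± 0.478% (SD, n = 3) at 20 µg/mL, 14.6 ± 0.493% at 100 µg/mL and 18.1 ± 0.230% at 500 µg/mL, against 8.68 ± 0.839% in vehicle. The rRNAs took 3.14% to 3.29% over the 3 libraries at 20 µg/mL, and 8.58 ± 0.288% and 12.5 ± 0.247% at 100 and 500 µg/mL. The mRNAs took 7.14 ± 0.410%, 6.00 ± 0.271% and 5.52 ± 0.306% at the 3 doses. The mean share of the rRNAs was thus higher at each higher dose, and that of the mRNAs lower. The mRNA shares overlapped between 100 µg/mL (5.72% to 6.26%) and 500 µg/mL (5.29% to 5.87%). Shares of a library's counts add up to a fixed total, so they are not independent.

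The dose effect of Aconiti was also set directly against that of Bupleuri, whose titles carry the same set code. This test called 10 of the 15 genes, where 10.2% of all genes tested were called (5.19% higher and 4.98% lower). The difference of the dose effects was 2.06 ± 0.0842 for MT-RNR1 (edgeR adjusted p = 2.17e-24), 1.51 ± 0.0914 for MT-RNR2 (7.78e-18) and -0.99 ± 0.193 for MT-ND4 (0.000219). For MT-ND4 itself, Bupleuri's libraries gave no called change from 20 to 500 µg/mL. Banhasasim against Yijung called 2 genes, where 12.1% of all genes were called (7.07% higher and 5.03% lower). Cimicifugae against Citri called 1 gene, where 28.2% were called (13.5% higher and 14.7% lower).

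In the other extracts, few mRNAs were called between 20 and 500 µg/mL. MT-RNR1 alone was called in Citri, where 1.65% of all genes tested were called (0.727% higher and 0.92% lower). Both rRNAs alone were called in Cimicifugae (39.2% of all genes, 19.5% higher and 19.7% lower), Bupleuri (18.8%, 9.9% and 8.89%) and Banhasasim (15.1%, 8.59% and 6.52%). In Yijung (3.77%, 1.65% and 2.12%) both rRNAs and MT-CO2 were called. MT-CO2 rose there by 0.34 ± 0.0927 (edgeR adjusted p = 0.0226), and all 13 mRNAs had values above 0, with a median of 0.32 against 0.00 for all genes. That MT-CO2 call was lost in 4 of the 6 fits that left out a library, those without replicate 1 or 2 at 500 µg/mL and without replicate 1 or 3 at 20 µg/mL (highest adjusted p = 0.241), and without replicate 2 at 20 µg/mL the number of genes called was 7 in place of 3. The median over the mRNAs was 0.13 in Cimicifugae, 0.10 in Bupleuri, 0.01 in Banhasasim, -0.03 in Citri and -0.29 in Aconiti.

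From 20 to 100 µg/mL of Cimicifugae, MT-ATP8, MT-ND6 and MT-RNR1 rose, where 1.29% of all genes tested were called (0.758% higher and 0.528% lower). MT-ATP8, a small membrane subunit of ATP synthase, stood at 245, 231 and 191 CPM at 20 µg/mL, at 561, 283 and 408 CPM at 100 µg/mL and at 269, 213 and 199 CPM at 500 µg/mL. MT-ND6 stood at 238, 203 and 199 CPM, then 513, 302 and 368 CPM, then 251, 219 and 251 CPM. For both genes the middle dose overlapped neither of the others, and its replicate 1 was the highest library. The rises were 0.91 ± 0.204 for MT-ATP8 (edgeR adjusted p = 0.00863), 0.88 ± 0.231 for MT-ND6 (0.0358) and 0.30 ± 0.0590 for MT-RNR1 (0.00197). Without replicate 1 at 100 µg/mL none of the 3 passed (0.63, 0.65 and 0.24, with edgeR adjusted p = 0.213, 0.338 and 0.0538), and without replicate 3 at 20 µg/mL MT-ATP8 (adjusted p = 0.0968) and MT-ND6 (0.165) did not. MT-ND6 was also lost without replicate 1 at 20 µg/mL (0.0737), replicate 2 at 20 µg/mL (0.143) or replicate 3 at 100 µg/mL (0.0840). With only the compared groups in the fit, 11 mitochondrial genes were called in place of 3. The share of all genes called in that fit is not given here. From 100 to 500 µg/mL (35.9% of all genes called, 17.8% higher and 18.1% lower), MT-RNR1 rose by 0.27 ± 0.0590 while MT-ATP8 fell by 0.88 ± 0.205, MT-ND6 by 0.72 ± 0.231, MT-ND4L by 0.29 ± 0.0939 and MT-ND5 by 0.29 ± 0.104.

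Between 20 and 100 µg/mL of the other 4 extracts, edgeR called none of the 15 genes. The shares of all genes called were 0.0249% in Citri and 0.0124% in Banhasasim, all of them lower, 0.162% in Bupleuri (0.0684% higher and 0.0932% lower) and 1.24% in Yijung (0.708% higher and 0.534% lower). At an unadjusted p under 0.05, 1 of the 15 genes passed in Bupleuri and 0 in Citri, Yijung and Banhasasim, and DESeq2 likewise called 1 in Bupleuri and 0 in the other 3. The gene was MT-RNR1 (0.24, DESeq2 adjusted p = 0.0192), which edgeR also called with a GC trend removed, without and with the replicate block (adjusted p = 0.0388 and 0.0366), and without a filter on low counts (0.000156). From 100 to 500 µg/mL, MT-RNR1 rose in Banhasasim (0.64 ± 0.0592; 13.7% of all genes called, 7.8% higher and 5.9% lower), Bupleuri (0.47 ± 0.0591; 14.6%, 8.08% and 6.48%), Yijung (0.43 ± 0.0591; 5.51%, 2.52% and 2.99%) and Citri (0.25 ± 0.0590; 0.609%, 0.354% and 0.255%). MT-RNR2 rose in the first 3 of these, by 0.28 ± 0.0643, 0.31 ± 0.0643 and 0.38 ± 0.0643, and no mRNA was called.

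Against vehicle, both rRNAs rose in all 18 groups of treated libraries. The smallest rise in MT-RNR1 was 0.65 ± 0.0592 (Yijung at 100 µg/mL, edgeR adjusted p = 1.27e-11), and the largest was 3.50 ± 0.0650 (Aconiti at 500 µg/mL, 11.3-fold). In MT-RNR2 they were 0.16 ± 0.0643 (Yijung at 100 µg/mL, adjusted p = 0.0465, with overlapping groups) and 2.25 ± 0.0673 (Aconiti at 500 µg/mL, 4.77-fold). All of these comparisons share the same 3 vehicle libraries, whose titles carry a set code that no extract has, so extract and set cannot be told apart here. The lowest MT-RNR1 value of any treated library (6264 CPM) was that of Bojungikgi at 20 µg/mL.

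The mRNAs against vehicle set Aconiti apart by its falls. At 500 µg/mL (47.4% of all genes called, 24.5% higher and 22.9% lower), MT-ND1 (0.84 ± 0.195), MT-ND2 (0.78 ± 0.152), MT-ND5 (0.73 ± 0.104) and MT-CYB (0.38 ± 0.112) rose with the rRNAs. MT-ND4L fell by 0.69 ± 0.0945, MT-ND4 by 0.65 ± 0.137, MT-CO3 by 0.49 ± 0.106, MT-ND3 by 0.37 ± 0.158 (edgeR adjusted p = 0.0494) and MT-CO2 by 0.35 ± 0.0928. The MT-ND3 groups overlapped, and its call was lost in 5 of the 6 fits that left out a library (highest adjusted p = 0.233). MT-CYB lost its call without vehicle replicate 2 (0.28, adjusted p = 0.0639). MT-ND1, whose product anchors the membrane arm of complex I to its ubiquinone site, stood at 4044, 2757 and 4917 CPM in vehicle and at 6925, 5876 and 5517 CPM at 20 µg/mL, 6872, 8218 and 6182 CPM at 100 µg/mL and 5896, 6865 and 8308 CPM at 500 µg/mL. It thus lay above vehicle at every Aconiti dose while the doses overlapped each other.

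At 100 µg/mL of Aconiti 7 genes rose against vehicle and 5 fell (37.5% of all genes called, 19.6% higher and 17.9% lower), and at 20 µg/mL 4 rose and none fell (31.2%, 16.8% and 14.4%). The 4 were MT-RNR1 (0.73 ± 0.0593), MT-RNR2 (0.37 ± 0.0643), MT-ND1 (0.65 ± 0.194) and MT-ND2 (0.62 ± 0.152). In the other 5 extracts no mitochondrial gene fell against vehicle at any dose. In Citri 7, 8 and 5 genes rose at 500, 100 and 20 µg/mL (22.5%, 22% and 19.3% of all genes called, with 12.7%, 12.4% and 11% higher), MT-ND2, MT-ND3 and MT-ND5 at every dose. The number at 500 µg/mL dropped to 2 without vehicle replicate 2, to 4 without replicate 1 at 500 µg/mL and to 3 without replicate 3 at 500 µg/mL. In Cimicifugae 3, 12 and 2 rose (45.8%, 29.5% and 19%, with 23.5%, 15.8% and 10.7% higher), with MT-CO2 beside the rRNAs at 500 µg/mL and MT-ATP8 (1.15 ± 0.206) as the largest of 10 mRNAs at 100 µg/mL. The MT-CO2 call was lost without replicate 1 at 500 µg/mL (0.24, edgeR adjusted p = 0.0544).

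In Bupleuri 3, 2 and 2 genes rose against vehicle (35.7%, 26.3% and 21.9% of all genes called, with 19%, 14.5% and 12.6% higher), with MT-CO3 beside the rRNAs at 500 µg/mL (0.29 ± 0.106, edgeR adjusted p = 0.0251). That MT-CO3 call was lost without vehicle replicate 2 (0.22, adjusted p = 0.152), vehicle replicate 3 (0.0698), replicate 2 at 500 µg/mL (0.0628) or replicate 3 at 500 µg/mL (0.0775). In Yijung 5, 2 and 2 rose (32.6%, 33.3% and 27.2%, with 17.5%, 17.6% and 14.8% higher), with MT-ND2 (0.52 ± 0.152), MT-ND4 (0.35 ± 0.136) and MT-ND4L (0.25 ± 0.0938) beside the rRNAs at 500 µg/mL. Yijung's 5 dropped to 2 without vehicle replicate 2 and to 3 without replicate 1 or without replicate 3 at 500 µg/mL. In Banhasasim the rRNAs alone rose at all doses (34.7%, 29.7% and 28.4%, with 18.6%, 16.1% and 15.3% higher). The single Bojungikgi libraries at 20, 100 and 500 µg/mL held 6264, 6272 and 7551 CPM of MT-RNR1 and 21350 (rounded from 21349.5), 21005 and 24484 CPM of MT-RNR2. Their MT-ND4 stood at 8332, 8125 and 9198 CPM, within the range of the vehicle libraries. Their MT-ND5 stood at 2691, 2709.8 and 3343 CPM, each outside the vehicle range of 2844 to 3280 CPM.

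**Figure D4:**
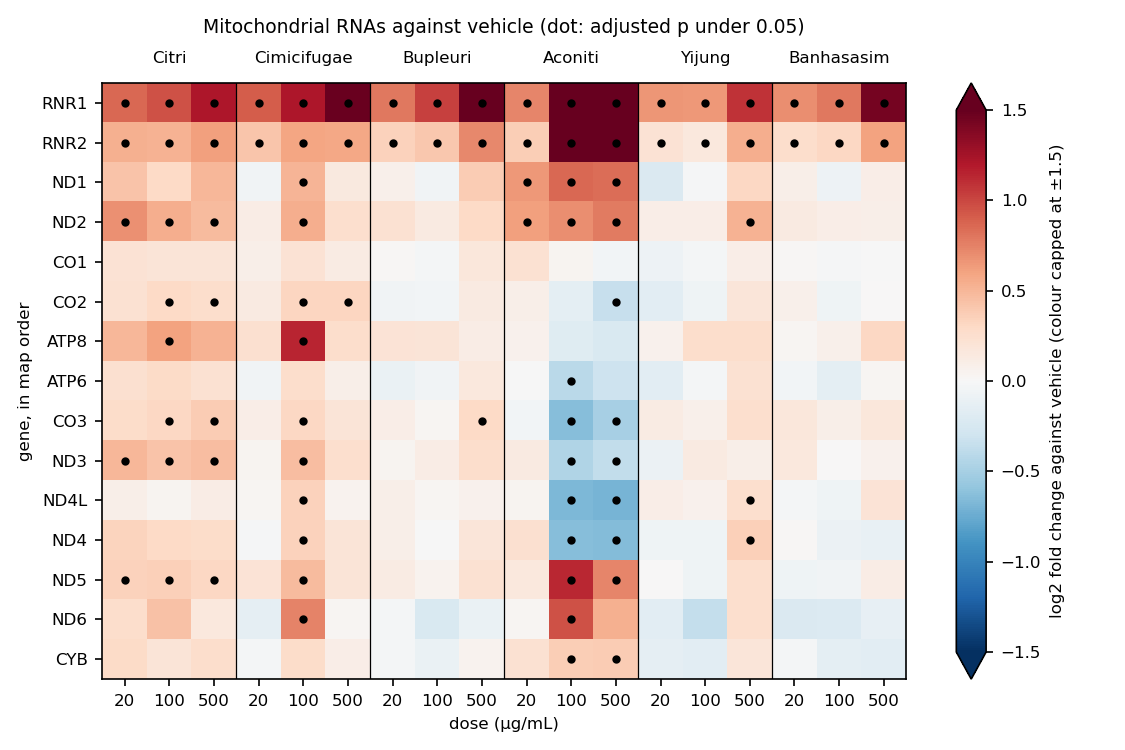
Log2 fold change against vehicle (color scale) of each mitochondrial rRNA and mRNA in map order, for each extract and dose with 3 libraries. Aconiti at 100 and 500 µg/mL shows falls at MT-CO3, MT-ND3, MT-ND4L and MT-ND4 (-0.65 at MT-ND4 at 500 µg/mL), with MT-ATP6 at 100 µg/mL and MT-CO2 at 500 µg/mL, between rises at both ends of the map.

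Per kilobase of transcript, levels in vehicle ran from 12355 CPM for MT-RNR2, 10343 for MT-CO3 and 9414 for MT-CO1 down to 1706 for MT-ND5, 912 for MT-ATP8 and 448 for MT-ND6. MT-RNR1 stood at 4411 CPM per kilobase in vehicle, in the middle of that order. The rRNAs were also the most even within groups. Their coefficient of variation, as a root mean square over the groups, was 5.24% for MT-RNR1 and 5.77% for MT-RNR2. Among the mRNAs it ran from 8.51% for MT-CO2 and 8.64% for MT-CO1 to 18.1% for MT-ND1, 19.1% for MT-ATP8 and 21.9% for MT-ND6. Over the 57 libraries, deviations of the mRNAs from their group means were correlated, with a Pearson r of 0.176 to 0.849 and a median of 0.575 over pairs of mRNAs. MT-ND1 and MT-ND2 gave 0.751, MT-RNR1 and MT-RNR2 0.671, and the overlapping MT-ATP8 and MT-ATP6 0.345. The paired genes share each library's depth and scaling.

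Nuclear genes that act on mitochondrial DNA and its RNA moved in both directions in Aconiti at 500 against 20 µg/mL, where 37.2% of all genes tested were called (19.2% higher and 18.1% lower). Of 19 genes for transcription and replication of mitochondrial DNA, 1 rose and 5 fell (median 0.01). TOP1MT, the mitochondrial topoisomerase, rose by 0.22, a call lost without replicate 3 at 500 µg/mL (0 higher and 4 lower in this list), and MTERF4, which acts in ribosome assembly, fell by 0.41. POLRMT stood at 0.09, the transcription factor TFB2M at 0.10, the elongation factor TEFM at 0.01 and MTERF1, which binds within MT-TL1, at -0.04, none of them called. TFAM, which packages and activates mitochondrial DNA, fell by 0.11 (edgeR adjusted p = 0.0371). Of 22 genes for RNA processing and stability, 7 rose and 1 fell (median 0.09), led by REXO2, which degrades short RNAs (0.52), and FASTKD1 (0.36). Leaving out replicate 3 at 500 µg/mL gave 9 higher and 0 lower in this list. LRPPRC and SLIRP, which bind and protect mitochondrial mRNAs, stood at 0.07 and 0.01 and were not called. Of 22 genes for rRNA modification and ribosome assembly 3 rose and 5 fell (median -0.02), among them FASTKD2 (0.13) and ERAL1, which binds the small-subunit rRNA (-0.19). Here 2 rose and 4 fell when replicate 3 at 500 µg/mL was left out. Of 9 regulators of mitochondrial biogenesis 3 rose and 4 fell (median -0.09). The coactivator PPARGC1A rose by 0.38 and the receptor ESRRA by 0.37, and NRF1 fell by 0.47. Without replicate 3 at 500 µg/mL, 3 of these regulators rose and 2 fell.

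Of 82 tested nuclear-encoded subunits of complexes I, III, IV and V, 10 rose and 3 fell (median 0.06), and of 78 mitochondrial ribosomal proteins 9 rose and 8 fell (median -0.02), or 9 and 5 without replicate 3 at 500 µg/mL. NDUFV2 rose by 0.33 and NDUFB10 fell by 0.21 among the first, MRPS6 rose by 0.36 and MRPL11 fell by 0.33 among the second. Of 14 mitochondrial chaperones and proteases 3 rose and none fell. When replicate 3 at 500 µg/mL was left out, 4 of these rose and 0 fell. The nuclear-encoded subunits then gave 11 higher and 3 lower. The median of all genes tested in this comparison was 0.00. In the other extracts at 500 against 20 µg/mL, the ribosomal proteins gave 5 higher and 14 lower in Cimicifugae (39.2% of all genes called), 2 and 2 in Bupleuri (18.8%), 1 and 0 in Yijung (3.77%), 0 and 1 in Banhasasim (15.1%) and 0 and 0 in Citri (1.65%). Genes for transcription and replication gave 0 and 6 in Cimicifugae, 0 and 2 in Bupleuri, 1 and 0 in Yijung, 3 and 0 in Banhasasim and 0 and 0 in Citri. The nuclear subunits gave 3 and 3 in Cimicifugae, 0 and 1 in Bupleuri and none called in the other 3.

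The tRNAs were hardly counted. All 22 together held 99 counts over the 60 libraries, 12 of them were at 0 in every library and no library held more than 4 counts of any. MT-TA and MT-TQ alone reached 10 counts over all libraries, with 37 and 27. MT-TL1, MT-TH, MT-TS2 and MT-TL2 were therefore not followed across doses. No tRNA passed the filter, so none was tested.

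Near-identical copies of mitochondrial DNA lie in the nuclear genome and can share reads with the genes described. The nuclear copies together held 0.0775% to 0.143% of the counts of a library. MTATP6P1, MTND2P28 and MTCO1P12 were the highest. MTATP6P1 stood at 873, 732 and 698 CPM at 20 µg/mL of Aconiti and at 638, 509 and 651 CPM at 500 µg/mL, without overlap (-0.36, edgeR adjusted p = 0.0498). MTND2P28 (0.31) and MTCO1P12 (-0.27) were not called. Of 9 nuclear copies tested 1 fell and none rose, where 18.1% of all genes tested were called lower and 19.2% higher. Values of MT-ATP6, MT-ND2 and MT-CO1 are uncertain by what the counting gave to their copies, and those of MT-ATP8, MT-ATP6, MT-ND4L and MT-ND4 by their overlaps.

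RNAs that lack a usual poly(A) tail were measured beside the rRNAs, whose own tails are short. The summed level of small RNAs without a usual tail was 26.5, 23.2 and 109 CPM in replicates 1, 2 and 3 of Aconiti at 500 µg/mL, 23.5, 24.1 and 15.7 CPM at 100 µg/mL and 18.3, 20.7 and 16.7 CPM at 20 µg/mL, against 23.9, 24.2 and 17.6 CPM in vehicle. Replicate 3 at 500 µg/mL stood apart from all other libraries, of which the highest held 51.8 CPM. Its RN7SL1 stood at 51.1 CPM against 13.2 and 9.83 CPM in the other replicates of its group. Its MT-RNR1 (47079 CPM) was the lowest of its group and its MT-RNR2 (91627 CPM) the middle one, and without this library the rises from 20 to 500 µg/mL were 2.78 for MT-RNR1 and 1.89 for MT-RNR2. From 20 to 500 µg/mL 4 of the 6 tested small RNAs rose with all libraries and none without replicate 3, where 19.2% of all genes were called higher with all libraries, while the mitochondrial genes gave 3 higher and 6 lower either way. Replication-dependent histones gave 3 higher of 13 tested, and 1 without replicate 3. The nuclear-retained MALAT1 rose by 0.63 and NEAT1 by 0.29. MALAT1 stood at 463, 380 (rounded from 380.05) and 378 CPM at 20 µg/mL and at 678, 602 and 616 CPM at 500 µg/mL, without overlap. The part of RNA selection in the rRNA values was not tested.

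Markers of cell identity moved as well in Aconiti at 500 against 20 µg/mL. Of 10 hepatocyte markers 7 fell and none rose, where 18.1% of all genes were called lower, and 6 fell without replicate 3 at 500 µg/mL. Their summed level was 36240.5 to 37167 CPM at 500 µg/mL against 41091 to 42890 (rounded from 42889.7) CPM at 20 µg/mL. FGA and FGB, chains of fibrinogen, fell by 1.38 and 1.03, and TF (transferrin) by 0.38. Of 4 tested markers of blood, endothelial and stromal cells CD68 rose by 0.50 and PECAM1 fell by 0.49. The fall was lost without replicate 3 at 500 µg/mL. The 4 tested markers together held 71.8 to 74.6 CPM at 500 µg/mL against 52.6 to 54.0 CPM at 20 µg/mL. Markers that did not pass the filter are not in this sum. The part of the cell markers in the mitochondrial values was not tested.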

How the data were processed

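Messenger RNA libraries of HepG2 cells (MGIEasy RNA Directional kit, paired-end reads of 100 bp) were processed by the authors with FastQC 0.11.9, Trim Galore 0.6.5, STAR 2.7.3a and RSEM 1.3.3 on GRCh38, per the submitters' processing notes. The deposited values are RSEM expected counts per gene (24.5% of nonzero values are not whole). The annotation release and strand setting are not given in the sources used here, so reads of MT-ND6 and of RNA from the opposite strand may not be told apart. A further 207 columns, of other series, were not used. The sample labels give 0.1% DMSO for the vehicle and the series description 2%, and the labels were followed.

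Symbols, positions and sequences came from GENCODE 29 (57055 of 60675 genes matched). Counts were rounded to whole numbers and tested with edgeR 4.0.16 (R 4.3.3, limma 3.58.1; filterByExpr, TMM, quasi-likelihood test, Benjamini-Hochberg over 16093 genes) over 57 libraries of 19 groups, with 39 comparisons. The common biological coefficient of variation was 4.86%. CPM values (counts relative to the library's total) are scaled by TMM over 60 libraries, and comparisons of levels between genes use CPM per kilobase. Scripts were tested on simulated data. No 2 libraries of a group agreed within sampling noise (chi-square per degree of freedom at least 2.68).

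Alternatives were median-ratio size factors, no filter, library sizes without mitochondrial genes, only the compared groups, a GC trend, a replicate block, DESeq2 1.42.0, counts per length, nuclear copies added, and each library left out. Same-numbered libraries deviated together (every correlation over 0.1) in Aconiti (0.158, 0.102 and 0.270 at 500 and 20 µg/mL) and Banhasasim (0.291, 0.194 and 0.104). Those numbers were taken as pairs, which the labels do not state. In Bupleuri the correlations were 0.0501, 0.127 and 0.407. Genes named besides the mitochondrial ones were the 3 called genes a direction with the smallest p in a list, and regulators and nuclear copies fixed by name, besides cell markers used to check the cell type. The middle dose's alternatives, the block with a GC trend and the lists without the library that stood apart were added after seeing the data. Members and lists were chosen with earlier results of these data known.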

Additional observations from a re-analysis of the deposited data

Results flagged for a closer look

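Each value here is the difference between the 500 against 20 µg/mL effects of a pair of extracts that share a title set, tested as an interaction in edgeR's quasi-likelihood model (n = 3 libraries a group, p adjusted over all genes tested). In Aconiti minus Bupleuri it was 2.06 for MT-RNR1 (adjusted p = 2.17e-24), 1.51 for MT-RNR2 (7.78e-18) and 0.47 for MT-ND5 (0.0287), so these rose more in Aconiti. It was -0.43 for MT-CO1 (0.0307), -0.63 for MT-CO2 (0.000544), -0.57 for MT-ATP6 (0.0443) and -0.64 for MT-CO3 (0.00210), that is, lower in Aconiti. Further along the map it was -0.73 for MT-ND3 (0.0255), -0.72 for MT-ND4L (9.59e-05) and -0.99 for MT-ND4 (0.000219). MT-ATP6 thus differed between the extracts while its own change in Aconiti did not pass (-0.31, adjusted p = 0.0648). In Cimicifugae minus Citri the difference was 0.22 for MT-RNR1 (adjusted p = 0.0423). In Banhasasim minus Yijung it was 0.32 for MT-RNR1 (0.00654) and -0.42 for MT-CO2 (0.0270).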

How the results depend on the processing

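Alternatives were run for the genes called at 500 or 100 against 20 µg/mL and at 500 µg/mL against vehicle, and none of those fold changes reversed. Of them, 451 kept their side of the threshold and 6 lost the call under the alternatives to scaling, filter, tool, samples, GC trend and block, and 307 kept it and 59 lost it with a library left out. MT-ND3 in Aconiti at 500 µg/mL against vehicle lost its call in 4 of these (-0.27 and adjusted p = 0.163 with a GC trend removed). Without a filter on low counts the number of genes called at 500 against 20 µg/mL was 2 in Citri, 9 in Cimicifugae, 8 in Bupleuri, 15 in Aconiti, 13 in Yijung and 6 in Banhasasim, and 13 in Aconiti at 100 against 20 µg/mL. At 500 µg/mL against vehicle it was then 14 in Citri, 10 in Cimicifugae, 11 in Bupleuri, 13 in Yijung and 6 in Banhasasim. More genes were tested without the filter. Of all genes, 302 in Citri (265 with the filter), 5911 in Cimicifugae (6316) and 2665 in Bupleuri (3024) were then called at 500 against 20 µg/mL. Aconiti gave 5575 (5989), Yijung 756 (607) and Banhasasim 2135 (2433). With only the compared groups in the fit, 10 mitochondrial genes were called in Cimicifugae and 5 in Bupleuri at 500 against 20 µg/mL. Against vehicle there were 7 in Cimicifugae, 5 in Bupleuri and 8 in Yijung. In Aconiti that fit added MT-ATP6, MT-ATP8, MT-CYB and MT-ND6 against 20 µg/mL, and MT-ATP6, MT-ATP8 and MT-ND6 against vehicle. It added MT-ATP8, MT-CYB and MT-ND1 in Citri against vehicle. In Yijung against 20 µg/mL it added MT-ND2 and lost MT-CO2 and MT-RNR2. Of all genes it called 6572 in Cimicifugae, 2527 in Bupleuri, 5866 in Aconiti and 135 in Yijung against 20 µg/mL. The cause was not tested. Against vehicle and at 100 against 20 µg/mL, the numbers of all genes called under these alternatives are not given here. The same holds for all fits with a library left out. Mitochondrial counts in those cases have no share of all genes beside them, so they cannot be set against it. Between 20 and 100 µg/mL, which was added after seeing the data, the counts without a filter were 14 in Cimicifugae, 2 in Bupleuri and 4 in Yijung. With only the compared groups Cimicifugae gave 11, and with the replicate block MT-ND4L was called there as well (adjusted p = 0.0493). In Aconiti between these doses, the fit on only the compared groups added MT-ATP6, MT-ATP8, MT-CO1 and MT-CO2. With a library left out the counts at 500 against 20 µg/mL ran from 1 to 2 in Cimicifugae, 2 to 7 in Yijung and 7 to 10 in Aconiti, and against vehicle from 2 to 8 in Citri and 2 to 5 in Yijung. Per transcript length the log2 ratio of rRNAs to mRNAs in Aconiti at 500 against 20 µg/mL was 2.48 in place of 2.34. With the replicate number as a block, 10 genes in place of 9 were called in Aconiti at 500 against 20 µg/mL and 2 as before in Banhasasim, and the pairing changed no other call where the numbers were taken as pairs. In the other extracts at least 1 pair's correlation was 0.1 or lower, and the block gave 1, 2, 2 and 3 genes in Citri, Cimicifugae, Bupleuri and Yijung, as without it. The tRNAs held too few counts to be tested.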
